A study of Homo sapiens with 4 samples.

Results

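The unfolded protein and amino acid stress genes are 36 genes, picked by name from general knowledge of these pathways, out of the 19577 genes counted in single MCF10A cells. The choice was made with earlier results of these data known. They form a chaperone arm of 23 genes, which fold, modify, import or clear proteins in the endoplasmic reticulum (ER) or sense their load, and an ATF4 arm of 13 genes, the transcription factor ATF4, the kinase EIF2AK3 and targets of ATF4. All 36 were found in the count tables. MCF10A is an untransformed human mammary epithelial line, here a derivative that carries histone H2B fused to GFP. In every sample 10000 cells were seeded as a round patch on glass coated with 0.1 mg/ml fibronectin and grown for 6 days in medium with horse serum (5%), insulin (10 µg/ml), cholera toxin (100 ng/ml), hydrocortisone (500 ng/ml) and EGF (20 ng/ml). In the low-resolution experiment (2 plates) concentric rings 1000 to 1500 µm wide were tagged with light-activated dyes, and in the high-resolution experiment (2 plates) the outermost 250 µm and the next 250 µm were tagged, after which cells were taken up with trypsin and live cells (by Draq7) were sorted into 384-well plates for SORT-seq, a 3′ counting method with molecular identifiers. The region of the patch that each well came from was not analysed here, so the comparisons below use the experiment and the state of each cell. There was no untreated control, one cell line stands for all samples, and the plates of an experiment are, according to the study's text, biological replicates of patches, so p-values measure the spread between them.

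The ER is where secreted and membrane proteins are folded. When folding falls behind the load, 3 sensors respond: IRE1 (ERN1) splices the mRNA of XBP1, ATF6 is cut to release a transcription factor, and PERK (EIF2AK3) phosphorylates the initiation factor eIF2α. The first and second branches induce chaperones and the degradation machinery, while phosphorylated eIF2α slows translation in general and favours translation of ATF4. The kinase GCN2 reaches the same factor when amino acids are scarce, so the ATF4 targets respond both to ER stress and to amino acid shortage, with enzymes and transporters that supply serine, asparagine and cystine. Epithelial to mesenchymal transition (EMT) changes the secretory load of a cell, because mesenchymal cells secrete matrix proteins such as fibronectin (FN1).

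The arms also differ in their promoters. RefSeq windows of GRCh38.p14, from 250 bases before to 50 bases after each start, were searched on both strands for the ER stress elements ERSE (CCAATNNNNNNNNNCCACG) and ERSE-II (ATTGGNCCACG), the element UPRE (TGACGTGG) and the C/EBP-ATF composite element CARE (TGATGNAA). Windows were at hand for 22 chaperone arm members and 12 ATF4 arm members, that is all but PDIA3 and SLC7A11. ERSE was found for 7 chaperone arm members (HSPA5, HSP90B1, CALR, CANX, PDIA6, CRELD2 and XBP1) and for no ATF4 arm member, against 0.0916% of the 27305 genes with a window. ERSE-II was found for SDF2L1, HYOU1 and HERPUD1 and for 0.0696% of all genes, and CARE for HERPUD1, CHAC1, ASNS and SLC3A2 and for 4.46% of all genes. UPRE was found for HYOU1 and for 0.927% of all genes, and the matches of ERSE, ERSE-II and UPRE can overlap since each holds CCACG on one strand. A match describes the letters only. Members and elements were both chosen from knowledge of these pathways, so the difference between arms is no independent result. The first set below shows ERSE in members that the results turn on, each with 10 bases on both sides and with the fixed letters of the element in capitals.
HSPA5: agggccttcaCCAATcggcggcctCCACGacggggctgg
HSP90B1: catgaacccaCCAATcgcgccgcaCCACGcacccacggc
CALR: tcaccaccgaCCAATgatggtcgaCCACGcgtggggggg
XBP1: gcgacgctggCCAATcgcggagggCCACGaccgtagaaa
PDIA6: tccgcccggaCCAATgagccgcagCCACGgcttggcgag
These runs lie at chr9:125241381-125241419 (HSPA5, minus strand), chr12:103930311-103930349 (HSP90B1, minus strand), chr19:12938374-12938412 (CALR, minus strand), chr22:28800593-28800631 (XBP1, minus strand) and chr2:10812843-10812881 (PDIA6, minus strand). The near end of the element was 48 bases upstream of the start for HSPA5, 71 for HSP90B1, 34 for XBP1 and 68 for PDIA6, and farther for CALR. HSP90B1 held another ERSE farther upstream. The next set shows ERSE-II in HERPUD1 and SDF2L1 and CARE in HERPUD1, ASNS and CHAC1, since HERPUD1 is the only member with an element of both kinds.
HERPUD1, ERSE-II: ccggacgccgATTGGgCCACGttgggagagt
SDF2L1, ERSE-II: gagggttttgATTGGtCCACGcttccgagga
HERPUD1, CARE: gggcacgggcTGATGcAAcccgccgcgt
ASNS, CARE: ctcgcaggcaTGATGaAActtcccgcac
CHAC1, CARE: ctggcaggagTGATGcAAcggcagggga
They lie at chr16:56932015-56932045 (plus strand), chr22:21642104-21642134, chr16:56931956-56931983, chr7:97872459-97872486 and chr15:40953252-40953279 (all minus strand).

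Counts were read as molecules per cell and levels as counts per 10000 counts of a plate or group of cells, a scale that needs no length correction for 3′ counting but includes mitochondrial counts. Of 1536 wells, 1146 cells passed the filters of 2000 to 9000 genes and under 40% mitochondrial counts, with a median of 30520 to 41248 counts a cell and of 28.4% to 31.2% mitochondrial counts. The cells expressed epithelial markers, though not evenly. KRT5 was found in 99.6% to 100% of cells of a plate, KRT6A in 99.3% to 100% and KRT17 in 92.1% to 96.9%. ITGA6 (93.5% to 97.6%) and ITGB4 (84.5% to 95.9%) were common too. KRT14 (43.9% to 77.3%), CDH1 (47.8% to 65.7%), EPCAM (59% to 70.8%) and CDH3 (41.6% to 56.3%) were found in fewer cells, and TP63 in 2.58% to 4.12% only. Of the fibroblast markers only COL1A1 (17.3% to 27.6% of cells) passed 1.71% of cells, and the list summed to 0.0674 to 0.132 per 10000. Among immune markers CD14 (36.9% to 59.8%) and CD68 (18.6% to 27%) were common while PTPRC stayed at 0.344% to 1.71% and CD3E at 0 to 0.341%. PECAM1 was the commonest endothelial marker, in 28.5% to 47.1% of cells, and KDR was found in 6.19% to 11.8%, while VWF and CDH5 stayed at or under 0.687%. According to the deposited names, low-resolution replicate 1 was run on another flow cell than the other 3 plates.

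The chaperone arm summed to 36.1 and 43.1 counts per 10000 in low-resolution replicates 1 and 2, and to 34 and 34.4 in high-resolution replicates 1 and 2. The ATF4 arm summed to 8.49 and 12.3 and to 10.8 and 11.3 in the same order. Low-resolution replicate 2 was therefore the highest plate for both arms, and the experiments overlapped for the ATF4 arm but not for the chaperone arm.

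**Figure D1:**
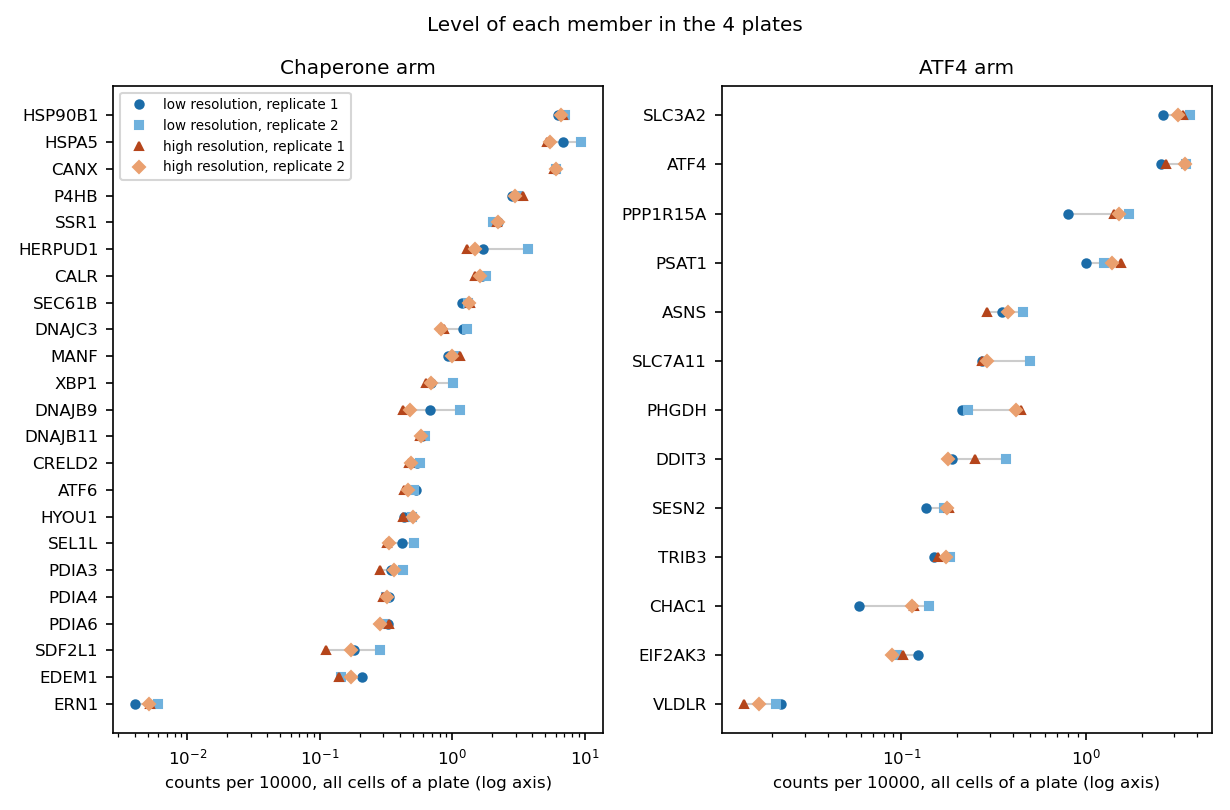
Level of each member in the 4 plates, as counts per 10000 counts summed over all kept cells of a plate (log axis); each point is a plate and the grey line joins the lowest and the highest. HERPUD1, DNAJB9 and HSPA5 are highest in low-resolution replicate 2, PHGDH lies higher in both high-resolution plates, and most other members lie close together.

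Single members covered a wide range of levels. HSP90B1 (GRP94, a lumenal chaperone), HSPA5 (BiP, the main ER chaperone) and CANX (calnexin, which holds glycoproteins for folding) were each found in nearly every cell of each plate (98.97% or more), with means of 6.72 ± 0.324, 6.70 ± 1.91 and 5.98 ± 0.105 per 10000 (SD, n = 4 plates). HSPA5 varied most among these, while CANX hardly varied between plates. The sensors differed among themselves: ERN1, the rarest member, was found in 1.37% to 2.21% of cells and EIF2AK3 in 27.1% to 30.7%, while ATF6 was found in 72.9% to 80.5%. In the ATF4 arm, SLC3A2 (the heavy chain of amino acid transporters), ATF4 itself, PPP1R15A (GADD34, which recruits a phosphatase to eIF2α) and PSAT1 (the second enzyme of serine synthesis) stood highest, with means of 3.19 ± 0.429, 3.05 ± 0.492, 1.35 ± 0.387 and 1.30 ± 0.229 per 10000. CHAC1 (a glutathione-degrading enzyme) was found in 13.4% to 30.3% of cells and VLDLR (a lipoprotein receptor) in 5.50% to 6.64%. ERN1, CHAC1 and VLDLR were too rare for correlations, for which a gene had to be found in 20% of the cells in each plate, and the other 33 members entered them. Pseudogenes carry the names of PDIA3, XBP1, SSR1, ATF4, ASNS and PSAT1 in the annotation, so reads of those 6 members may be shared with copies. Genes of the other strand overlap HSP90B1, DNAJB9, DDIT3 and SLC7A11 among others, and the strand setting of the counting is not given in the sources used here.

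The first comparison asked whether the arms stood at different levels in the high-resolution and low-resolution experiments. Counts were summed over the cells of each plate and tested with edgeR's quasi-likelihood test with Benjamini-Hochberg adjustment over 12437 genes, 2 plates against 2. In such sums, fewer cells that express a gene and less RNA per cell cannot be told apart. Of 22 chaperone arm members tested, 4 fell and none rose in the high-resolution plates, where 6.18% of all genes fell and 6.26% rose (12.4% called in all). The median log2 fold change was -0.13 over the chaperone arm, 0.05 over the ATF4 arm and -0.02 over all genes.

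DNAJB9 (ERdj4, a BiP cochaperone) stood at 0.672 and 1.14 per 10000 in the low-resolution plates and at 0.424 and 0.476 in the high-resolution plates, and fell by 0.98 ± 0.21 (SE) on the log2 scale, adjusted p = 0.0100. HERPUD1, a membrane protein of ER-associated degradation, stood at 1.70 and 3.71 against 1.28 and 1.48, and fell by 0.95 ± 0.27, adjusted p = 0.0365. Neither pair of plates overlapped, but low-resolution replicate 2 lay far above low-resolution replicate 1 in both genes. HSPA5 stood at 6.83 and 9.36 against 5.15 and 5.48 and fell by 0.58 ± 0.15, adjusted p = 0.0247. DNAJC3 (p58IPK, another BiP cochaperone) stood at 1.20 and 1.29 against 0.868 and 0.821 and fell by 0.53 ± 0.12, adjusted p = 0.0126. DNAJC3 was the member of these 4 whose low-resolution plates lay closest together. Just outside the threshold, SEL1L, an adaptor of the degradation ligase, had a log2 fold change of -0.48 at an adjusted p of 0.0500042. The larger part of the chaperone arm gave no call, HSP90B1 (log2 0.05 ± 0.11), CANX (0.02 ± 0.10) and P4HB, a protein disulfide isomerase (0.13 ± 0.12), among them.

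In the ATF4 arm 1 of 13 members rose and none fell. PHGDH, the first enzyme of serine synthesis, stood at 0.213 and 0.230 per 10000 in the low-resolution plates and at 0.444 and 0.420 in the high-resolution plates, 1.99-fold higher (log2 1.00 ± 0.14, adjusted p = 0.000983 in edgeR's quasi-likelihood test). It was found in 32.5% and 34.7% of low-resolution cells and in 56% and 59.8% of high-resolution cells, and in cells thinned to 10000 counts in 16.4% and 16% against 33.1% and 25.1%, so that the experiments did not overlap at either depth. PSAT1, next in the same pathway, went from 1.00 and 1.26 to 1.55 and 1.39 without a call (log2 0.40 ± 0.14, adjusted p = 0.0749). FN1, for comparison, stood at 5.23 and 4.22 against 7.97 and 7.71, 1.70-fold higher with an adjusted p of 0.00127, VIM, a mesenchymal filament protein, rose by 0.94 on the log2 scale, and CDH1, an epithelial adhesion protein, fell by 0.68.

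Other quantities moved with the experiment. S phase markers were higher for 19 of 41 genes and G2/M markers for 19 of 54, and the immediate early genes that respond to dissociation summed to 11.4 and 15.8 per 10000 in the low-resolution plates and to 17 and 20.2 in the high-resolution plates. The immune list, with CD14 and CD68 its commonest genes, summed to 0.473 and 0.594 against 0.327 and 0.258. Their part in the member differences was not tested. Fits with a plate left out keep 1 plate of an experiment and cannot decide a call, so only log2 fold changes are given. Without low-resolution replicate 1, that is within 1 flow cell, HSPA5 fell by 0.82 on the log2 scale. Without low-resolution replicate 2 DNAJB9 fell by 0.50, while HSPA5 was at -0.28 and HERPUD1 at -0.22, each a smaller fall than with all plates. DNAJC3 was at -0.43 without low-resolution replicate 2 and at -0.47 without high-resolution replicate 2. With all plates DESeq2 did not call DNAJB9 (adjusted p = 0.109) or HERPUD1 (0.337). PHGDH was at 1.10 on the log2 scale without low-resolution replicate 2. In the ATF4 arm CHAC1 (1.06), PPP1R15A (0.94) and PSAT1 (0.62) were higher without low-resolution replicate 2. SLC7A11 (-0.81) and DDIT3 (-0.79) were lower without low-resolution replicate 1.

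The next question was how the arms varied from cell to cell. For each cell an arm score was taken as the mean z-score of the members within the plate, over 22 chaperone and 11 ATF4 arm members, and an EMT score as the enrichment of mesenchymal minus that of epithelial genes, neither list holding a member. Spearman correlations over the cells of a plate, n = 1146 cells in 4 plates, describe the data and carry no test, and cells of a plate share their library. The chaperone score had a mean rho of 0.35 ± 0.075 (SD, n = 4 plates) with the EMT score, of 0.37 ± 0.062 with FN1 and of 0.41 with the summed share of secretory cargo genes, but of -0.09 with the G2/M score. For the ATF4 score the order was turned, with 0.26 for the EMT score, 0.12 for FN1, 0.37 for the G2/M score and 0.31 for the S score. Both scores were lower in cells with a high mitochondrial share, with mean rhos of -0.38 and -0.43. The totals used for scaling include mitochondrial counts, so a higher share by itself lowers the scaled level of every other gene. These rhos therefore cannot show a property of the arms. The arms correlated with each other at only 0.18 ± 0.11, with a range of 0.02 to 0.26 over plates. The same scaling enters this rho and those with the EMT score. All of these were lower with mitochondrial genes left out, as given in the section on processing.

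**Figure D2:**
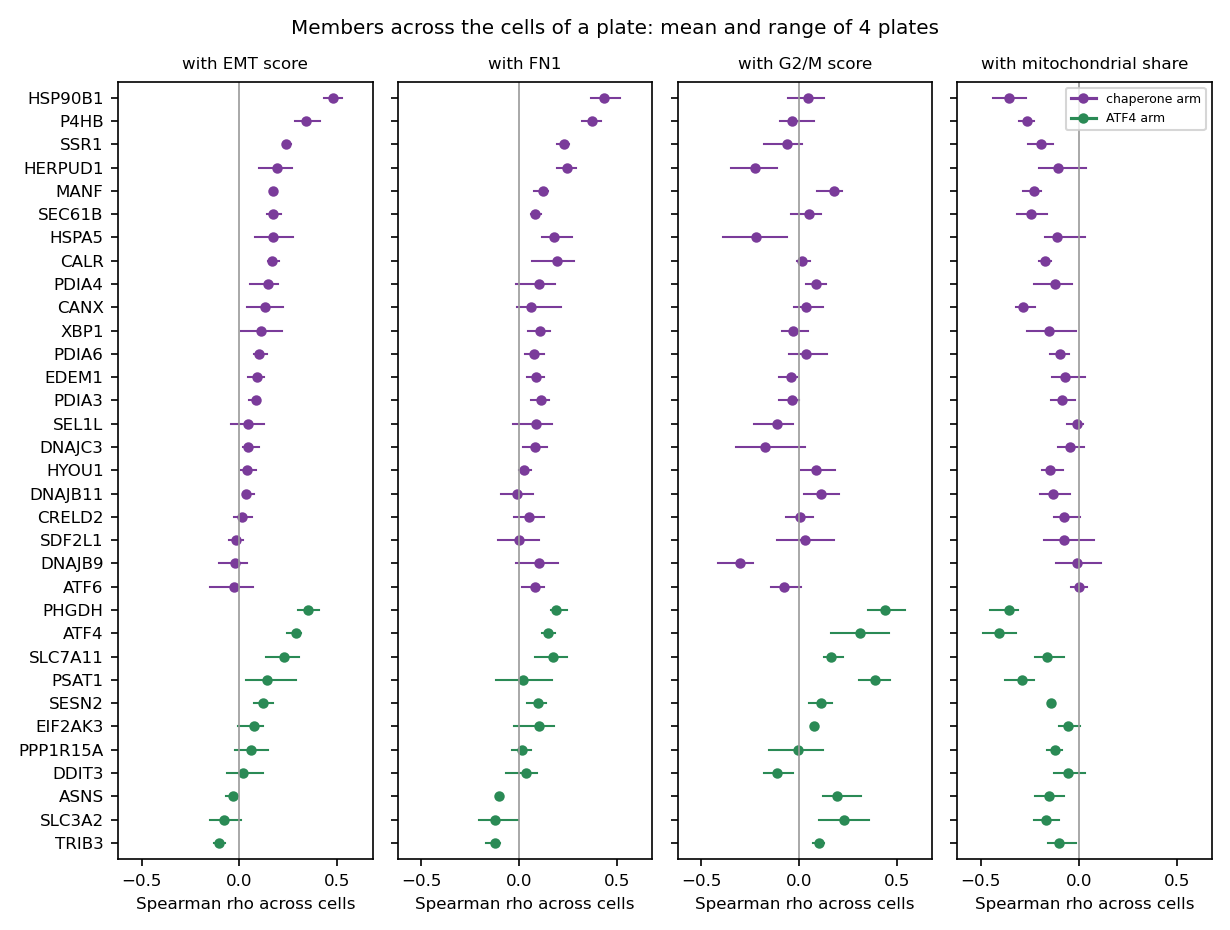
Spearman rho of 33 members with the EMT score, FN1, the G2/M score and the mitochondrial share across the cells of a plate; points are means of 4 plates and lines the range over plates. HSP90B1 (0.48) and P4HB (0.34) lead the chaperone arm by EMT score, while PHGDH (0.44) and PSAT1 (0.39) lead all members by G2/M score and DNAJB9 (-0.30) has the lowest value there.

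HSP90B1 led the chaperone arm on both secretory axes, with mean rhos of 0.48 for the EMT score and 0.43 for FN1 and of 0.05 for the G2/M score. P4HB, a subunit of the collagen prolyl hydroxylase as well as a disulfide isomerase, followed with 0.34 and 0.37. HERPUD1 (0.19 and 0.24) and HSPA5 (0.17 and 0.18) tracked the EMT score and FN1 more weakly, and both were lower in cells with a high G2/M score (-0.23 and -0.22). DNAJB9 stood apart from them with -0.02 for the EMT score, 0.10 for FN1 and -0.30 for the G2/M score. In the ATF4 arm PHGDH combined 0.35 for the EMT score with 0.44 for the G2/M score, and PSAT1 had 0.14 and 0.39. TRIB3, a pseudokinase that feeds back on ATF4, had the lowest rho with the EMT score, -0.11, and SLC3A2 had -0.08.

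Members were only loosely tied to each other. The closest pairs were HSPA5 with HSP90B1 (mean rho 0.41, range 0.34 to 0.49 over plates) and HSPA5 with HERPUD1 (0.39, range 0.20 to 0.58), then ATF4 with PHGDH and with PSAT1 and PSAT1 with PHGDH, each at 0.33. With every cell thinned to 10000 counts the first pair fell to 0.27 and ATF4 with PSAT1 to 0.17, so these values depend on depth. DNAJB9 with PSAT1 was the lowest pair, at -0.14. The mean over plates of the median rho was 0.08 for pairs within the chaperone arm, 0.09 for the 55 pairs within the ATF4 arm and 0.03 for pairs across arms, while the median over all pairs of 8032 genes was 0.018 to 0.022 in the 4 plates.

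The highest scores of the arms met in about as many cells as their sizes alone would give. Among the 29, 27, 29 and 29 cells of the top 10% of each arm in the 4 plates (low-resolution replicates first), 2, 4, 3 and 1 cells were in both, that is 8.77% of them, where the top group of an arm held 9.95% of all cells. The highest ATF4 arm score, 2.56, was that of a high-resolution replicate 2 cell whose chaperone score was 0.18. That cell held 14 counts of TRIB3, 12 of ASNS (asparagine synthetase), 28 of PSAT1 and 6 of CHAC1, which is 3.69, 3.16, 7.40 and 1.58 per 10000, and no count of EIF2AK3.

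**Figure D3:**
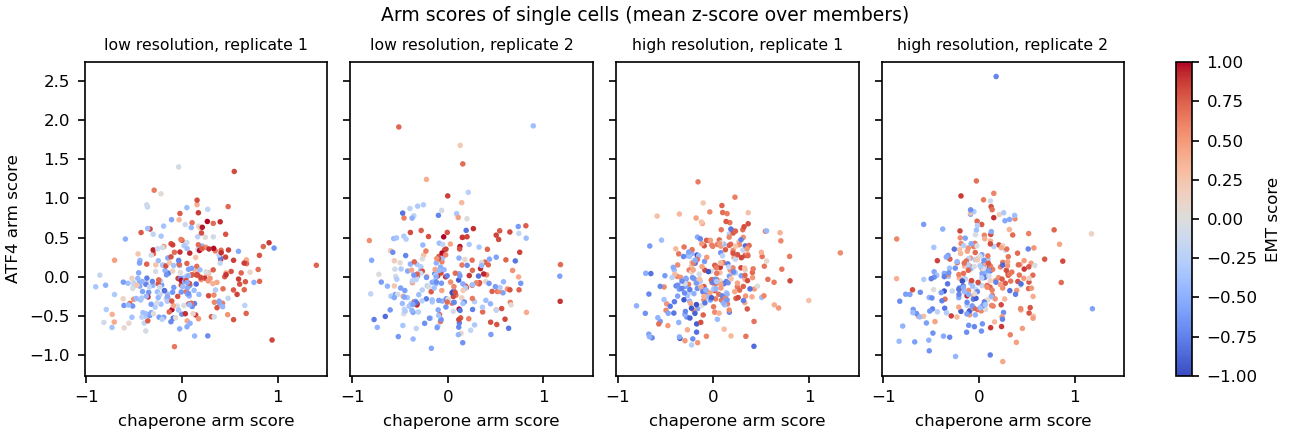
Chaperone arm score (x axis) and ATF4 arm score (y axis) of each kept cell in the 4 plates, both as mean z-scores over members, coloured by EMT score. Cells with a high EMT score lie more often to the right (mean rho of the EMT score with the chaperone score 0.35) and towards the top (0.26 with the ATF4 score).

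Cells were then compared by EMT state within plates. The cells of each plate were ranked by EMT score and cut into 3 equal groups, the highest (mesenchymal group) was set against the lowest (epithelial group), counts were summed for each, and the plate was a block in the edgeR quasi-likelihood fit over 10687 genes. These groups are ranges of a continuous score, and 63 to 85 cells of a plate lay within 5% of its range from a cut. In the mesenchymal group 11 of 22 chaperone arm members rose and none fell, where 20.3% of all genes rose and 20.8% fell (41% called in all). The median log2 fold change was 0.24 over the arm and -0.00 over all genes. In the ATF4 arm 4 of 12 members rose and 2 fell, with a median of 0.31.

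HSP90B1 was the chaperone with the firmest difference. Its level went from 4.73 to 8.70 per 10000 in low-resolution replicate 1, from 5.93 to 9.41 in replicate 2, from 5.23 to 8.47 in high-resolution replicate 1 and from 5.18 to 7.88 in replicate 2, and it rose 1.54-fold (log2 0.62 ± 0.07, adjusted p = 3.53e-05). All 4 mesenchymal values lay above all 4 epithelial values. EDEM1, which extracts misfolded glycoproteins for degradation, rose 1.58-fold from a low level, going from 0.147 to 0.282, 0.108 to 0.194, 0.112 to 0.156 and 0.121 to 0.201 in the same order of plates (log2 0.66 ± 0.14, adjusted p = 0.00292). HERPUD1 went from 1.45 to 2.17, 3.38 to 4.49, 0.940 to 1.56 and 1.13 to 1.77 and rose 1.41-fold (log2 0.50 ± 0.08, adjusted p = 0.000405). For HERPUD1 the plates differed more than the EMT states, and the epithelial cells of low-resolution replicate 2 stood above the mesenchymal cells of every other plate. HSPA5, with 5.97 to 7.92, 8.99 to 10.2, 4.14 to 5.83 and 4.82 to 5.71, rose 1.18-fold only (log2 0.24 ± 0.08, adjusted p = 0.0237).

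The disulfide isomerases PDIA4 (log2 0.51), P4HB (0.38) and PDIA6 (0.35) rose in the mesenchymal group, as did MANF (0.35), a secreted ER protein, CALR (0.24), the lumenal lectin calreticulin, and the translocation proteins SSR1 (0.31) and SEC61B (0.23), each higher in 4 of 4 plates. Leaving out a plate ended the call of SEC61B (without low-resolution replicate 1 or 2 or high-resolution replicate 1, adjusted p = 0.0821 to 0.116), of CALR (without low-resolution replicate 2 or either high-resolution plate, 0.0567 to 0.0885), of PDIA6 (without replicate 2 of either experiment, 0.0560 and 0.0605) and of HSPA5 (without replicate 1 of either experiment, 0.0702 and 0.111). In cells thinned to 10000 counts HSPA5 (adjusted p = 0.0680), EDEM1 (0.152), PDIA4 (0.0546), PDIA6 (0.386), MANF (0.0708) and SEC61B (0.113) lost their edgeR calls. DESeq2 did not call CALR (adjusted p = 0.0764), PDIA6 (0.137) or SEC61B (0.119). PDIA3, the isomerase that works with calreticulin, had a log2 fold change of 0.26 at an adjusted p of 0.0681, and XBP1 of 0.27 at 0.0598, without a call. XBP1 was called in thinned cells (log2 0.42, adjusted p = 0.0183). The BiP cochaperones did not move with them: DNAJB9 was at -0.10, DNAJB11 at 0.08, DNAJC3 at 0.09 and SDF2L1 at -0.04, and none was called. HYOU1 (0.03), CRELD2 (-0.05), ATF6 (-0.13) and SEL1L (0.05) gave no call either. By promoter, 5 of 10 members with ERSE or ERSE-II rose and 6 of 11 tested members without, with medians of 0.24 and 0.23.

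The ATF4 arm split by gene. PHGDH went from 0.117 to 0.333 per 10000 in low-resolution replicate 1, from 0.102 to 0.400 in replicate 2, from 0.197 to 0.783 in high-resolution replicate 1 and from 0.199 to 0.627 in replicate 2, a 3.24-fold rise (log2 1.70 ± 0.12, adjusted p = 7.64e-07). SLC7A11, the cystine carrier that supplies glutathione synthesis, went from 0.164 to 0.424, 0.344 to 0.724, 0.140 to 0.439 and 0.186 to 0.446 and rose 2.35-fold (log2 1.23 ± 0.12, adjusted p = 7.35e-06). For PHGDH every mesenchymal value lay above every epithelial value, and the same held for SLC7A11, whose highest epithelial value was that of low-resolution replicate 2. ATF4 mRNA itself rose 1.32-fold (2.06 to 3.05, 2.91 to 4.15, 2.25 to 3.15 and 2.82 to 3.74, log2 0.40 ± 0.07, adjusted p = 0.000866), and SESN2, a sestrin that binds leucine, rose by 0.65 ± 0.15 on the log2 scale, adjusted p = 0.00467.

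Opposite to these, TRIB3 went from 0.180 to 0.0847, 0.186 to 0.115, 0.192 to 0.0888 and 0.201 to 0.116 and was 1.99-fold lower in the mesenchymal group, adjusted p = 0.000281. SLC3A2, which pairs with SLC7A11 at the membrane, fell by 0.31 ± 0.08 on the log2 scale (adjusted p = 0.00949), from 2.61 to 2.34, 3.59 to 3.49, 3.75 to 3.06 and 3.54 to 2.73. Without high-resolution replicate 2 SLC3A2 was at -0.26 with an adjusted p of 0.06004. The partners of the cystine exchanger thus differed in direction in all 4 plates. Among the members without a call, the log2 fold change was 0.26 for DDIT3 (CHOP, a factor that promotes cell death), 0.36 for CHAC1, 0.08 for PPP1R15A and -0.18 for ASNS.

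**Figure D4:**
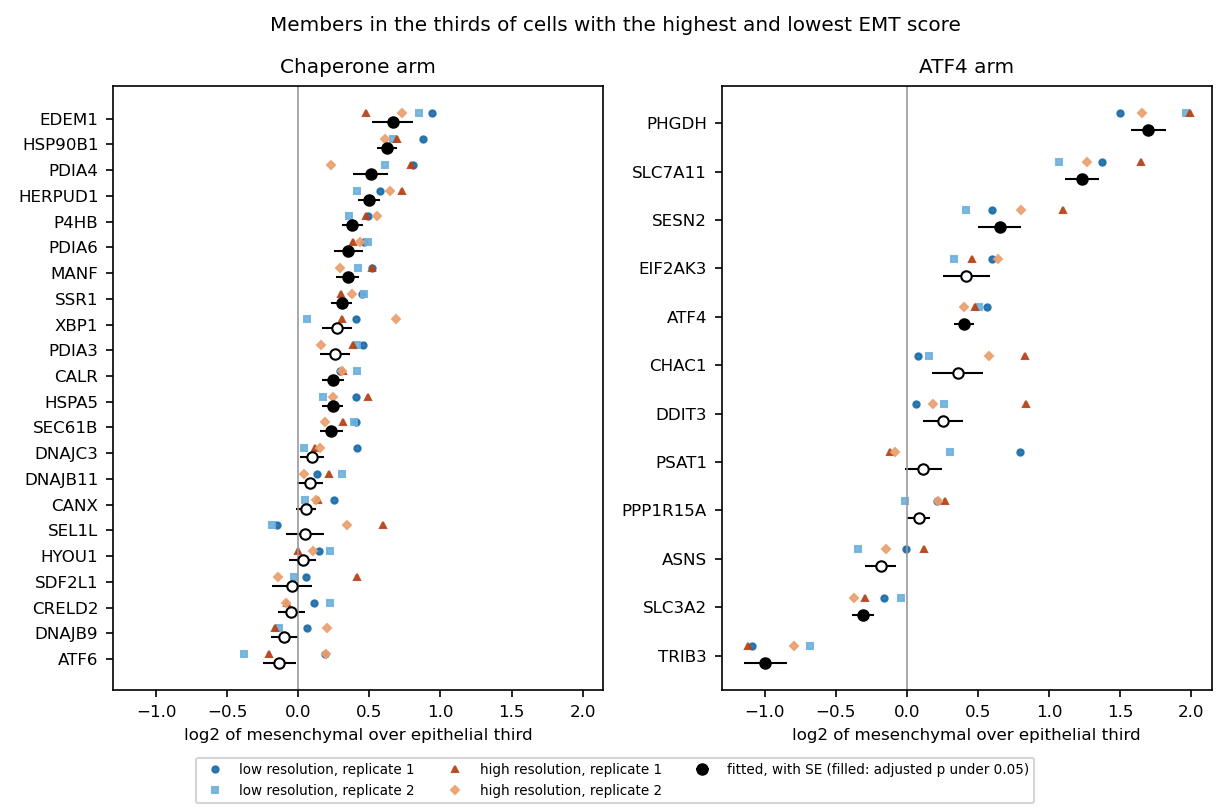
Log2 ratio of the mesenchymal group over the epithelial group for each member tested; small coloured points are the ratios of levels in the 4 plates and black points the fitted log2 fold change with its SE, filled where the adjusted p is under 0.05. Ratios of levels lie mostly to the right of the fitted values. Levels include mitochondrial counts while the fit uses edgeR's own scaling of the sums, and the cause of the shift was not tested. PHGDH and SLC7A11 on one side and TRIB3 on the other lie farthest from 0.

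Several properties of the cells moved with the EMT state. Median mitochondrial shares went from 32.6% to 26.4%, 33% to 29%, 33.8% to 27.6% and 31.7% to 25.9%, and median counts a cell from 33374 to 27494 and 35968 to 30197 in the low-resolution plates but from 39223 to 39129 and 38479 to 41966 in the high-resolution plates. G2/M markers were higher for 29 of 54 genes. FN1 itself was 20.6-fold higher and VIM 43.2-fold higher, and CDH1 was 23.4-fold and EPCAM 23.3-fold lower, as genes of the EMT lists. In cells with S and G2/M scores at or under 0, 9 chaperone arm members rose and none fell, where 19.9% of all genes rose and 20.2% fell, and 4 ATF4 arm members rose and 2 fell, with PSAT1 (log2 0.55, adjusted p = 0.00946) taking the place of SESN2.

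Because FN1 and the EMT score go together, groups were also taken within cells of high and of low FN1, an alternative added after seeing the data. They were cut on an EMT score computed without FN1, so the score changed along with the matching. This reduced the FN1 difference to 2.68-fold without removing it. Over all genes 18.1% then rose and 17.5% fell. Of 22 chaperone arm members only HSP90B1 still rose (log2 0.30 ± 0.07, adjusted p = 0.00389), while DNAJB9 fell by 0.46 ± 0.09 (adjusted p = 0.00114) and ATF6 by 0.41 ± 0.10 (adjusted p = 0.00766). HERPUD1 was at -0.00. In the ATF4 arm PHGDH (1.41), SLC7A11 (0.81), PSAT1 (0.45) and ATF4 (0.37) rose and TRIB3 fell by 0.42. In these cells G2/M markers were higher for 52 of 54 genes and S markers for 32 of 41, and their part in the result was not tested.

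**Figure D5:**
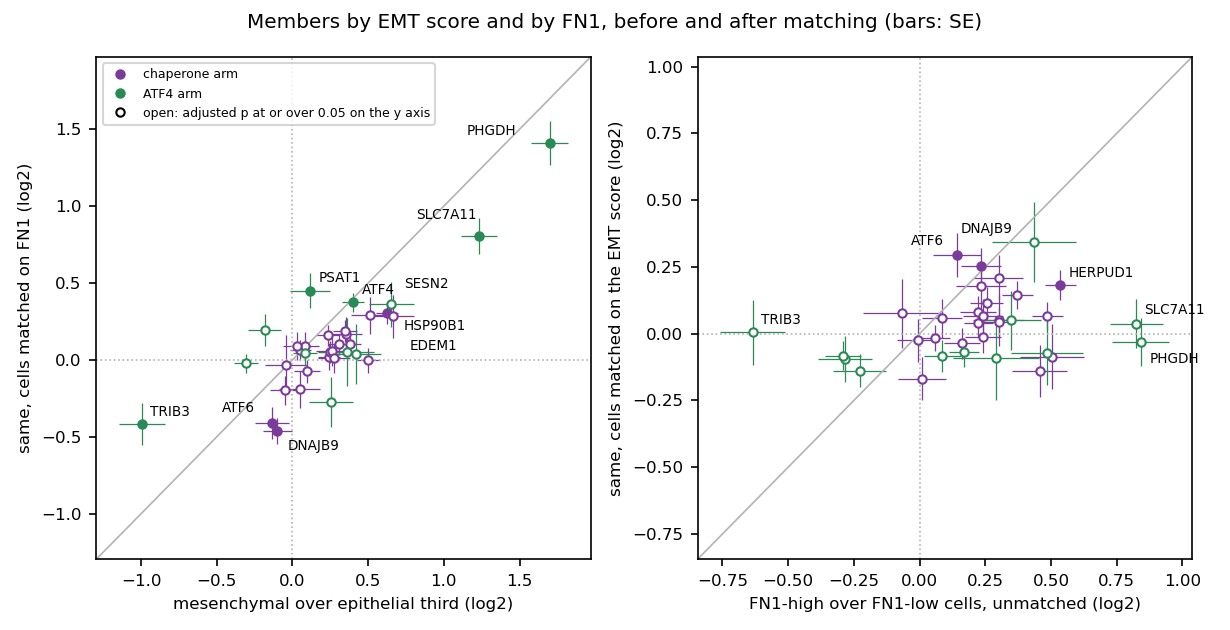
Log2 fold change with SE of each member before (x axis) and after (y axis) matching. Left, by EMT score, before and after matching on FN1, where the matched groups use an EMT score computed without FN1. Right, by FN1, before and after matching within 10 equal groups of the EMT score. On the left the chaperone arm members called before matching lie nearer to 0, PHGDH (1.70 to 1.41) and SLC7A11 (1.23 to 0.81) are lower but remain far from it, ATF4 (0.40 to 0.37) stays near the diagonal, and on the right most members of both arms drop towards 0.

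The converse comparison took FN1 as a measure of secretory load, at a matched EMT score. Cells above the median of FN1 were set against the rest within each of 3 equal groups of an EMT score computed without FN1, and FN1 then differed 5.84-fold. The matching was coarse, since the median EMT score without FN1 still went from -0.083 to 0.149, -0.231 to -0.059, 0.065 to 0.429 and -0.167 to 0.361. Of 22 chaperone arm members 2 rose and none fell, where 6.43% of 11249 genes rose and 5.64% fell (12.1% called in all), and of 13 ATF4 arm members none rose and 2 fell. The medians were 0.09 and -0.01, beside -0.00 over all genes.

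DNAJB9 went from 0.609 to 0.745, 1.06 to 1.21, 0.377 to 0.480 and 0.406 to 0.555 per 10000 and rose by 0.33 ± 0.07 on the log2 scale, adjusted p = 0.00575 in edgeR's quasi-likelihood test. P4HB went from 2.68 to 2.96, 2.96 to 3.27, 3.16 to 3.70 and 2.75 to 3.17 and rose by 0.20 ± 0.05, adjusted p = 0.0193. Both differences are small beside the spread between plates but held one direction in 4 of 4 plates. P4HB lost its call without high-resolution replicate 1 (adjusted p = 0.146) or 2 (0.0839). Without low-resolution replicate 2 ATF6 (0.29) and HERPUD1 (0.27) rose in addition. HSP90B1 was at 0.10 and HSPA5 at 0.02 with no call. PSAT1 fell by 0.35 ± 0.08, adjusted p = 0.00343 (1.13 to 0.858, 1.28 to 1.23, 1.70 to 1.37 and 1.69 to 1.04), and ASNS fell by 0.31 ± 0.09, adjusted p = 0.0313, a call that ended without low-resolution replicate 1 (0.0527) or 2 (0.170) or high-resolution replicate 2 (0.101). PHGDH gave no call (log2 0.12, adjusted p = 0.501). In FN1-high cells 50 of 54 G2/M markers and 27 of 41 S markers were lower as well, and their part in these differences was not tested. Among cells with low S and G2/M scores no member of either arm was called, where 160 genes (1.58%) rose and 52 (0.514%) fell. At an unadjusted p under 0.05 in the edgeR test HSP90B1, P4HB, DNAJB9, SLC7A11 and EIF2AK3 were higher and no member was lower. The share of all genes at that unadjusted cut is not given here, so these names are no result about the arms.

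With FN1-high and FN1-low cells taken within 10 equal groups of the EMT score, which left medians of -0.022 and -0.015, -0.228 and -0.118, 0.318 and 0.303, and 0.098 and 0.162, DNAJB9 (log2 0.25), ATF6 (0.29, adjusted p = 0.0281) and HERPUD1 (0.18, adjusted p = 0.0499) rose, where 3.77% of all genes rose and 4% fell, and no ATF4 arm member was called. Without any matching 14 chaperone arm members and 5 ATF4 arm members rose, where 17.5% of all genes rose and 15.5% fell, HERPUD1 (0.54), EDEM1 (0.50) and HSP90B1 (0.49) foremost in the first and PHGDH (0.84) and SLC7A11 (0.82) in the second, while TRIB3 fell by 0.64 and SLC3A2 by 0.29. With the summed share of secretory cargo genes in place of FN1, DNAJB9 (0.45), PDIA3 (0.28), P4HB (0.16) and CALR (0.16) rose in the chaperone arm, and in the ATF4 arm SESN2 and PPP1R15A (0.25) rose and PSAT1 fell by 0.36, where 8.94% of all genes rose and 8.25% fell. DNAJB9 was thus called in each of these comparisons, but not among cells with low cycle scores (0.28, adjusted p = 0.0761) nor in thinned cells (0.30, 0.0984), where the fold was about as large. In thinned cells P4HB was not called either (0.22, adjusted p = 0.0520), while HSP90B1 (0.27, 0.00524) and HERPUD1 (0.34, 0.0110) rose.

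The arms were set against each other last. Cells were cut into 3 equal groups by ATF4 arm score and the highest set against the lowest, so that the ATF4 members define them and get no test, and chaperone arm members were read over 10638 genes. Of 22 members 2 rose and 4 fell, where 17.8% of all genes rose and 17.5% fell (35.3% called in all), with a median of -0.00. XBP1 went from 0.553 to 0.804, 0.932 to 1.16, 0.571 to 0.737 and 0.545 to 0.807 per 10000 and rose by 0.32 ± 0.08 on the log2 scale, adjusted p = 0.00905. MANF rose by 0.28 ± 0.07, adjusted p = 0.0105. ATF6 went the other way in every plate, from 0.659 to 0.473, 0.576 to 0.490, 0.489 to 0.419 and 0.55 to 0.403, and fell by 0.47 ± 0.09, adjusted p = 0.00191. In cells thinned to 10000 counts edgeR did not call XBP1 (log2 0.23, adjusted p = 0.309), MANF (0.07, 0.751) or ATF6 (-0.39, 0.0985). DESeq2 on all counts did not call XBP1 (adjusted p = 0.0932) or MANF (0.111).

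DNAJB9 (log2 -0.30), SEL1L (-0.29) and DNAJC3 (-0.21) fell as well, although DNAJC3 and SEL1L were at about the same level in both groups of low-resolution replicate 1. Without low-resolution replicate 2 DNAJB9 was at -0.22 with an adjusted p of 0.130, and DNAJC3 and SEL1L each lost their calls without that plate or either high-resolution plate (0.0844 to 0.193). DESeq2 did not call DNAJB9 (adjusted p = 0.163), DNAJC3 (0.276) or SEL1L (0.279). In thinned cells edgeR did not call DNAJC3 (adjusted p = 0.627) or SEL1L (0.475). The main chaperones gave no call, with HSPA5 at 0.01 ± 0.07, CALR at -0.02 ± 0.06 and HSP90B1 at 0.13 ± 0.06. In the high group G2/M markers were higher for 53 of 54 genes and S markers for 39 of 40, and the median counts a cell were higher in every plate, by the widest margin in high-resolution replicate 2 (34646 to 50768). With the groups taken at matched EMT score XBP1 (0.23) and MANF (0.19) lost their calls and PDIA3 (-0.33) fell in addition, where 15.6% of all genes rose and 12.8% fell. Among cells with low cycle scores edgeR called no chaperone arm member, where 443 genes (4.81%) rose and 456 (4.96%) fell. At an unadjusted p under 0.05 in that test HSPA5, HSP90B1, XBP1, HERPUD1 and SEC61B were higher and ATF6 lower. The share of all genes at this unadjusted cut is not given either, so the names are no result about the arm. XBP1 was at 0.29 in cells with low cycle scores, close to its value over all cells, ATF6 at -0.31 and DNAJB9 at 0.09.

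Genes outside the members also differed by ATF4 arm score, where 17.8% of all genes rose and 17.5% fell. Of 30 other ATF4 targets 19 rose and 1 fell in the high group, led by STC2 (stanniocalcin 2, log2 1.03), GDF15 (a stress cytokine, 1.08), EIF4EBP1 (a translation repressor, 0.96) and SHMT2 (mitochondrial serine hydroxymethyltransferase, 0.76). Of 18 cytosolic tRNA synthetases 14 rose and none fell, led by TARS (0.71), IARS (0.69), YARS (0.78) and GARS (0.52). The rise was not particular to these 2 lists, whose median log2 fold changes were 0.48 and 0.37. G2/M markers (53 of 54 higher) had a median of 1.71 and S markers (39 of 40 higher) of 1.06. Of 12 cytosolic heat shock genes 8 rose and 1 fell, with a median of 0.43. In cells with low cycle scores 8 of 25 and 6 of 18 rose and none fell, beside 8 of 37 G2/M markers. Over all genes 4.81% rose and 4.96% fell there.

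Finally, the EMT difference was compared between experiments with an interaction term. Of 22 chaperone arm members none was called and of 12 ATF4 arm members 1 was lower, where 0.964% of genes were higher and 2.06% lower (3.02% in all). PSAT1 went from 0.674 to 1.17 and from 1.04 to 1.28 in the low-resolution plates, but from 1.56 to 1.43 and from 1.34 to 1.26 in the high-resolution plates, a difference of -0.63 ± 0.15 on the log2 scale, adjusted p = 0.0305 in edgeR's quasi-likelihood test. The value was -0.40 without low-resolution replicate 1, adjusted p = 0.264, and DESeq2 gave -0.64 with an adjusted p of 0.265, neither of them a call. No other member passed the threshold, SEL1L coming nearest with 0.63 at an adjusted p of 0.0743, and it was the only chaperone arm member at an unadjusted p under 0.05. In the other comparisons, an arm for which edgeR called 0 members in a direction also had 0 at an unadjusted p under 0.05 and 0 with DESeq2.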

How the data were processed

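Each plate was deposited by the authors as a table of expected counts, that is molecule counts per gene and well after a correction for identifiers used more than once. The submitters' processing notes name STAR 2.7.3a, Seurat 4 and hg38; neither the annotation nor the strand setting is named there. The correction was inverted to check that the values come from whole counts, and sums over cells were rounded. Totals were 11709628 to 14992348 expected counts a plate. Cells with 2000 to 9000 genes and under 40% mitochondrial counts were kept. EMT scores followed the gene set variation method, rewritten here, with mesenchymal minus epithelial enrichment in each experiment. The plate was the replicate: expected counts were summed per plate, or per plate and group of cells, and tested with edgeR 4.0.16 in R 4.3.3 (TMM, filter on low counts, quasi-likelihood test, Benjamini-Hochberg adjustment over all genes tested, threshold 0.05), with the plate as a block for comparisons within plates. DESeq2 1.42.0, other normalizations and filters, cells thinned to 10000 counts, a replicate block and plates left out were alternatives. The fits were tested on simulated data: of 200 genes changed 2-fold, 74% were recovered between experiments (12437 genes) and 84% between EMT groups (10687 genes), 93% by FN1 (11249 genes), 90.5% by ATF4 arm score (10638 genes) and 59.5% for the interaction (10687 genes), and of the genes called 1.33%, 5.08%, 8.37%, 7.18% and 0.833% were unchanged ones. The simulated plates shared one profile and differed only by their totals, random spread and the changed genes. These rates therefore need not hold for the real plates or for changes smaller than 2-fold. Members of both arms could be named throughout, other genes only as up to 4 of a list by adjusted p or as the nearest by correlation. The members and lists were chosen with earlier results of these data known. Samples of equal number were not paired (correlation of their deviations -0.04 over 7297 genes). The table of well barcodes was not used.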

Additional observations from a re-analysis of the deposited data

Results flagged for a closer look

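In the comparisons by EMT score, FN1 and ATF4 arm score, the 4 plate log2 ratios of each member were examined for a plate far from the others. Of these sets 2, 1.94% of them, were marked, fewer than the 1 in 20 that chance marks. Levels of members in the plates were not examined in this way, so the share says nothing about plates outlying in level. SLC7A11, for example, stood at 0.495 per 10000 in low-resolution replicate 2 and at 0.274 to 0.290 in the other 3 plates. When cells of high and low FN1 were compared at a matched EMT score, the log2 ratio of PDIA3 was -0.053 in low-resolution replicate 2 and 0.24 to 0.26 in the other 3 plates. When cells of high and low ATF4 arm score were compared, the log2 ratio of DNAJB9 was -0.37 in low-resolution replicate 2 and -0.13 to -0.09 in the others. PSAT1 was the member whose EMT difference differed between experiments, by -0.63 ± 0.15 (SE) on the log2 scale with an adjusted p of 0.0305 in edgeR's quasi-likelihood test, of 34 members tested for the interaction.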

How the results depend on the processing

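With 4 plates and 2 experiments the calls rest on few replicates, and members at low levels had little power. Between experiments, 4 chaperone arm members fell, 2 with DESeq2 and 1 to 7 with a plate left out; 1 ATF4 arm member rose, 2 with no filter on low counts, 2 with a replicate block and 1 to 4 with a plate left out, and 0 to 2 fell with a plate left out. The replicate block gave 2023 calls over all genes against 1547, and 6 chaperone arm members fell under it, SDF2L1 and SEL1L in addition. In the mesenchymal group, 11 chaperone arm members rose. The count was 6 with thinned cells (XBP1, not among the 11, included), 6 without the plate block and 1 matched on FN1, where 2 fell. Of 2 ATF4 arm members that fell, 1 remained in number without the plate block, 1 matched on FN1 and 1 to 2 with a plate left out. By FN1 at matched EMT score, 2 chaperone arm members rose (P4HB and DNAJB9), another 2 in thinned cells (HSP90B1 and HERPUD1), 1 with DESeq2, 4 with no mitochondrial limit, 0 without the plate block, 14 unmatched, 4 with the cargo share, 0 with low cycle scores and 1 to 4 with a plate left out; ATF4 arm members rose for 5 unmatched and 2 with the cargo share, and fell for 1 with DESeq2, 0 without the plate block, 1 with the cargo share, 0 within 10 EMT groups, 0 with low cycle scores and 1 to 2 with a plate left out. By ATF4 arm score, chaperone arm members rose for 0 with DESeq2, 4 with no filter, 1 with no mitochondrial limit, 0 thinned, 0 without the plate block, 0 at matched EMT score and 0 with low cycle scores, and fell for 1 with DESeq2, 1 with no filter, 1 thinned, 1 without the plate block, 0 with low cycle scores and 1 to 4 with a plate left out. The interaction of PSAT1 was -0.64 with DESeq2, -0.70 thinned, -0.71 with 4 EMT groups in place of 3 and -0.87 to -0.40 with a plate left out. The mean rho of the ATF4 score was 0.183 (thinned), 0.297 (no mitochondrial limit) and 0.215 (mitochondrial genes left out) with the EMT score, 0.0506, 0.167, 0.0798 and, with low cycle scores, 0.170 with FN1, and 0.0725 with G2/M in cells of low cycle scores. That of the chaperone score with the EMT score was 0.259 without mitochondrial genes, and that between arms 0.0658 thinned and 0.0723 without mitochondrial genes. The median over chaperone pairs was 0.0421 thinned and 0.103 with no mitochondrial limit, and over pairs across arms 0.0499 with no mitochondrial limit. The sign differed for HERPUD1 in the EMT comparison matched on FN1 (-0.0039, well within its SE of 0.08). By unmatched FN1 it differed for PDIA4 (-0.01 to 0.46), EDEM1 (-0.06 to 0.50) and ATF4 (-0.12 to 0.17), and by cargo share for PPP1R15A (-0.003 to 0.25). The starting values of these FN1 comparisons carried no call. By ATF4 arm score with low cycle scores DNAJB9 was at 0.093 without a call. Calls over all genes moved by more than 1.5 times between experiments from 1547 to 917 thinned, 982 without low-resolution replicate 1 and 987 without high-resolution replicate 2, between EMT groups from 4384 to 2567 thinned, by FN1 from 1358 to 481 with DESeq2, 788 thinned, 584 and 657 without high-resolution replicate 1 or 2, 2 without the plate block, 3720 unmatched, 876 within 10 EMT groups and 2.09% of genes (from 12.1%) with low cycle scores, by ATF4 arm score from 3750 to 1994 with DESeq2, 1012 thinned, 1496 without the plate block and 899 with low cycle scores, and for the interaction from 3.02% of genes to 2.32% thinned, 1.23% with low cycle scores and 1% with 4 EMT groups, and to 60 genes with DESeq2, 596 with no filter and 99 and 82 without low-resolution replicate 1 or 2. The cause of these changes was not tested, beside fewer cells, counts or plates where an alternative leaves them out.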

Other observations

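Around the chaperone arm, other lists of the secretory machinery were read for the EMT groups, where 20.3% of all genes rose and 20.8% fell; the lists were not tested against each other. Of 13 collagen and matrix chaperones 11 rose in the mesenchymal group and none fell, led by PLOD1 (log2 1.96) and P3H1 (2.28), which hydroxylate collagen, CRTAP (0.90), the partner of P3H1, and SEC23A (1.06), a coat protein of ER exit. Of 27 genes in a wider ER folding list 16 rose and 1 fell. KDELR3 (2.29), a receptor that returns ER proteins, FKBP7 (2.16) and HSPA13 (1.36) were ahead. The gene that fell, CDK2AP2 (-0.60), is by name a CDK2-associated protein and not an ER folding gene. Of 26 translocation genes 11 rose and 1 fell, SSR3 (0.63), SSR2 (0.55) and TRAM1 (0.49) among the former. Of 20 degradation genes only 2 rose and 2 fell, OS9 (-0.29) among the latter.

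Of 16 stress sensors and regulators 7 rose and 1 fell in the mesenchymal group. CREB3L2 (1.09), an ER membrane factor that promotes the secretory pathway, and EIF2AK4 (0.75), the amino acid sensor GCN2, rose, and NFE2L1 (-0.54) fell. Of 29 other ATF4 targets 8 rose and 4 fell, shares not far from those of all genes (GDF15 among the 8 is itself a gene of the EMT score), STC2 (2.36), PSPH (1.09), the last enzyme of serine synthesis, and TXNRD1 (0.75) in one direction and SLC7A5 (-1.34), which like SLC7A11 pairs with SLC3A2, in the other. Of 8 mitochondrial chaperones none rose and 2 fell. Of 43 secretory cargo genes 8 are genes of the EMT score, FN1 among them, and of the other 35 genes 24 rose and 6 fell, with a median of 1.47.

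Genes outside all lists whose mean rho with the chaperone score was highest over the 4 plates were ANPEP (0.40), CTSB (0.39), ITGB1 (0.38), ITGA3 (0.37) and HTRA1 (0.36), and with the ATF4 score CSE1L (0.44), NPM1, RAN, UBB and HMGB1 (each 0.43), among 8032 genes.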
